A study of Mus musculus with 9 samples.

Results

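The amino acid transporters described here are 10 genes of the solute carrier families that carry amino acids across the plasma membrane, namely Slc3a2, Slc7a5, Slc7a6, Slc7a11, Slc7a1, Slc1a4, Slc1a5, Slc38a1, Slc38a2 and Slc6a9. They were chosen by gene symbol from the 56691 genes of the deposited table, with earlier results of these data known. Many of them are known targets of the transcription factor ATF4. All 10 were found, and all 10 were expressed enough to be tested. The RNA came from RAW264.7, a line of mouse macrophages that turns into osteoclast-like cells under the cytokine RANKL. There were 3 groups of 3 libraries, taken on day 3. Control cells received neither agent, the RANKL group was stimulated with RANKL (50 ng/mL for 72 h by the study's methods), and the RANKL+UD group was stimulated with RANKL and given uridine (UD), a pyrimidine nucleoside. The UD dose of these libraries is not named in the sources used here, and all libraries come from 1 cell line. The labels number the replicates as biosamples and do not state whether these were separate cultures. If they were not, the p-values measure only technical spread. Cells were sequenced in bulk, so a change in the RNA of each cell cannot be told apart from a change in the share of cells that make it.

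Amino acids are polar and cross the plasma membrane through carriers. The product of Slc3a2 is the heavy chain of the heteromeric carriers, which brings a light chain to the membrane, and the light chain moves the amino acid. Cystine, leucine, arginine, glutamine and glycine taken up in this way feed glutathione, protein and nucleotide synthesis, and leucine and arginine are read by the mTORC1 kinase. When amino acids run short or the endoplasmic reticulum is under stress, cells make the transcription factor ATF4, which binds C/EBP-ATF response elements (CAREs) of several carrier genes. Osteoclasts form by fusion of macrophage precursors, grow into large cells and secrete much protein.

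With RANKL, 6 of the 10 carriers rose and 2 fell against control, where 27.3% of all genes tested rose and 30.2% fell. When UD was added, 8 of the 10 fell against RANKL alone, where 20.2% of all genes tested fell and 18.6% rose. The largest of these falls were in Slc1a4, the alanine, serine and cysteine exchanger, in Slc7a11, the cystine carrier, and in Slc3a2, the heavy chain. The 2 that were higher with UD than with RANKL alone were Slc7a6 and Slc38a1, by small amounts. Of the 17 other ways of processing that were run, 6 lost the call of Slc1a5, which is among the 8, and 5 lost that of Slc38a1. Because the carriers were chosen with earlier results known, the counts of carriers called describe the set and are no test of it. Summed over the 10 genes, FPKM was 276.5 to 286.4 in control, 316.7 to 330.7 with RANKL and 246.2 to 255.3 with RANKL+UD. FPKM is the number of fragments counted on a gene divided by its exonic length and by the total counted in the library.

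RefSeq promoter sequences (GRCm38.p6) were found for 7 of the 10 genes, and those of Slc7a5, Slc1a5 and Slc38a1 were not. The stretches of 150 bases before the annotated start are shown for the 3 genes with the largest falls under UD, because these genes moved together. They are written 5′ to 3′ on the strand of the gene, and capitals mark the letters TGATGNAAN of a CARE, searched on both strands. The Slc7a11 stretch is chr3:50443614-50443763, that of Slc1a4 is chr11:20332714-20332863 and that of Slc3a2 is chr19:8713898-8714047, all on the minus strand.
Slc7a11: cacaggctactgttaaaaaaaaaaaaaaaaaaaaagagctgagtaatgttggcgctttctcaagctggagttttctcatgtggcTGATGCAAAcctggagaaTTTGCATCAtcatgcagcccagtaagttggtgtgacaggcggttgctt
Slc1a4: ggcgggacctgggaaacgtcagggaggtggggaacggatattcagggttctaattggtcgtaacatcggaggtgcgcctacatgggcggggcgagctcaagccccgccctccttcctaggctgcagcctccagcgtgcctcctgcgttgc
Slc3a2: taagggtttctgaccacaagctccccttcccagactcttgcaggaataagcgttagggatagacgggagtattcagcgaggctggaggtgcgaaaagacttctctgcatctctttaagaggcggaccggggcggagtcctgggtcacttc

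Slc7a11 held 2 matches, TGATGCAAA at 66 to 58 bases before the start on the strand of the gene and TTTGCATCA at 48 to 40 bases on the opposite strand. These letters occurred in the 250 bases before a start in 3.44% of 32851 RefSeq windows and in 1 of the 11 windows of the carriers, since a gene can have several starts. Counted by gene, that was 3.89% of all genes and 1 of the 7 carriers found. The letters TGACNNNGC of an antioxidant response element, the site of NRF2, were searched in the same way. They occurred in 10.2% of windows and in 5 of the 11 windows of the carriers. By gene this was 11.5% of genes and 4 of the 7 carriers, Slc38a2, Slc6a9, Slc7a1 and Slc7a6. A gene with several starts has more windows in which a match can fall, so the counts by gene are not fully alike. The E-box CACGTG occurred in 6.86% of genes (6.02% of windows) and in 0 of the 7. A match of letters is a description of the sequence and does not show binding. Only the 250 bases before each start were searched. Sites after the start or further away would not be found, so a gene without a match may still hold one.

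Each library held 15951800 to 19746862 counted fragments (median 19182637), and the lowest count of any carrier in any library was 136 (Slc1a4). The cells carried the markers of their line. Of 9 macrophage markers, 8 were at an FPKM of at least 1 in every library. The summed FPKM of the 9 was 9421 to 10013 in control, 2528 to 2772 with RANKL and 2205 to 2339 with RANKL+UD. In control most of this sum was 1 gene, Lyz2, at 7882, 7818 and 8299. Of the 8 that were tested, 7 fell and 1 rose with RANKL, beside 30.2% and 27.3% of all genes. With UD against RANKL, 6 fell and 1 rose, beside 20.2% and 18.6%. Of 10 osteoclast markers, the summed FPKM was 57.6 to 60.3 in control, 2715 to 2920 with RANKL and 1724 to 1761 with RANKL+UD. All of the 9 that were tested rose with RANKL, beside 27.3% of all genes. All 9 fell with UD against RANKL, beside 20.2%. The sum of 13 markers of other cell types was at most 1.59. The macrophage and osteoclast markers thus differed between the groups, not all in the same order of groups as the carriers. Their part in the results was not tested.

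The heavy chain gene Slc3a2 (ENSMUSG00000010095) had FPKM values of 39.1, 40.8 and 41.2 in control, 49.1, 56.7 and 54.8 with RANKL, and 28.5, 29.2 and 30.6 with RANKL+UD. The 3 groups did not overlap, and the RANKL+UD libraries lay below control as well as below RANKL. On the log2 scale the gene rose by 0.50 with RANKL (SE 0.055, adjusted p = 1.04e-07 by the quasi-likelihood test of edgeR, with p-values adjusted after Benjamini and Hochberg over 11995 genes). It then fell by 0.95 with RANKL+UD against RANKL (SE 0.056, adjusted p = 5.20e-11 by the same edgeR test), to 0.518 times its RANKL level.

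Slc7a5 (ENSMUSG00000040010), the light chain that imports leucine and other large neutral amino acids, had an FPKM of 29.2, 30.5 and 32.7 in control, 23.9, 24.1 and 23.2 with RANKL, and 15.9, 17.4 and 17.1 with RANKL+UD. It was the carrier whose level went down at both steps, with no overlap between any 2 groups. Slc7a5 fell by 0.29 with RANKL (SE 0.056, edgeR adjusted p = 0.000167) and by a further 0.58 with RANKL+UD (SE 0.058, edgeR adjusted p = 8.56e-08). Against control, the RANKL+UD level was 0.547 times as high.

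Slc7a6 (ENSMUSG00000031904), the light chain that exchanges arginine for neutral amino acids, went the other way under UD. Its FPKM was 15.97, 15.76 and 14.72 in control, 10.36, 10.35 and 10.72 with RANKL, and 12.72, 14.34 and 13.3 with RANKL+UD. The RANKL+UD libraries lay between the other two groups without touching either. Slc7a6 fell by 0.48 with RANKL (SE 0.063, edgeR adjusted p = 1.55e-06) and rose with UD by a log2 fold change of 0.27 (SE 0.064, edgeR adjusted p = 0.00182). The remaining difference from control, a log2 fold change of -0.20 (SE 0.063, edgeR adjusted p = 0.00956), was not called without RANKL+UD replicate 1 (log2 fold change -0.17, adjusted p = 0.0611).

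Slc7a11 (ENSMUSG00000027737) encodes the light chain that takes in cystine against glutamate and so supplies cysteine for glutathione. Its FPKM was 4.77, 5.36 and 4.72 in control, 6.33, 6.65 and 5.54 with RANKL, and 3.15, 3.33 and 3.21 with RANKL+UD. All RANKL libraries were above control, the nearest being RANKL replicate 3, and all RANKL+UD libraries were below control. The gene rose with RANKL by a log2 fold change of 0.40 (SE 0.069, edgeR adjusted p = 3.75e-05). Under UD it fell to 0.493 times its RANKL level, with a 95% interval of the log2 fold change of -1.17 to -0.87, and to 0.652 times its control level (edgeR adjusted p = 2.85e-07).

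**Figure D1:**
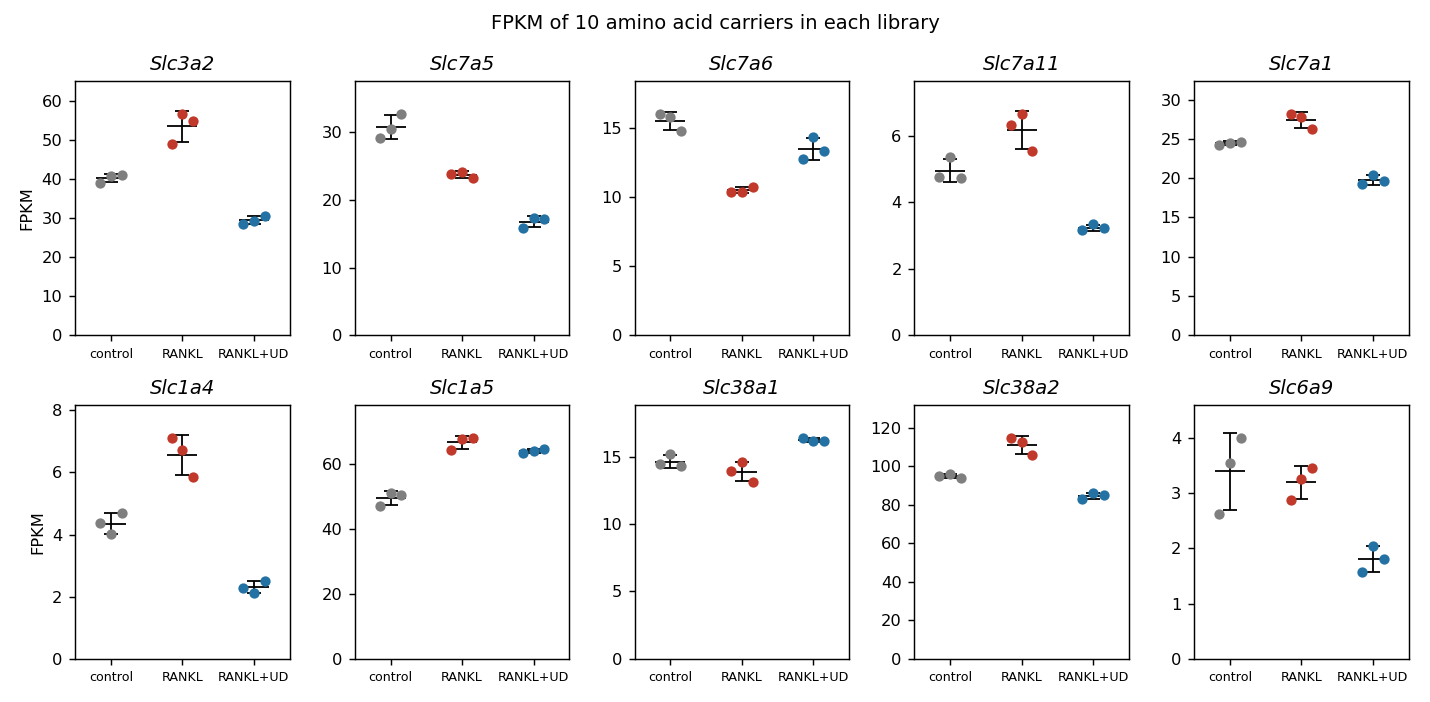
FPKM of each carrier (vertical axes, from 0, each with its own range) in the 3 control, 3 RANKL and 3 RANKL+UD libraries, with a point per library and the mean ± SD as bar and whiskers. Slc1a4, Slc3a2, Slc7a11, Slc7a1 and Slc38a2 are highest with RANKL and lowest with RANKL+UD, Slc7a5 goes down at each step, and Slc1a5 stays near its RANKL level.

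Taken as a sum, the light chains did not move by the same factor as the heavy chain. In every library the FPKM of Slc7a5, Slc7a6 and Slc7a11 was summed and divided by that of Slc3a2. The ratio was 1.28, 1.27 and 1.27 in control, 0.826, 0.726 and 0.720 with RANKL, and 1.11, 1.20 and 1.10 with RANKL+UD. As mean ± SD (n = 3 each) these were 1.27 ± 0.006, 0.757 ± 0.0597 and 1.14 ± 0.0537, so that there was less light chain RNA per heavy chain RNA with RANKL, and the groups did not overlap. For each pair of groups a two-sided exact permutation test gave p = 0.1, which is the smallest that 3 against 3 allows. The light chain sum itself fell at both steps, its mean FPKM being 51.2 for control, 40.4 for RANKL and 33.5 for RANKL+UD libraries. The ratio rose under UD because Slc3a2 fell more, from a mean FPKM of 53.5 to 29.5. Of the 3 light chains, Slc7a11 moved most like Slc3a2. Its log2 fold changes were 0.40 beside 0.50 under RANKL and -1.02 beside -0.95 under UD.

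The make-up of the light chains also differed. Slc7a11 was 9.67% ± 0.677 of their summed FPKM in control, 15.3% ± 1.10 in RANKL and 9.65% ± 0.224 in RANKL+UD libraries (SD, n = 3 each). Slc7a6 was 30.3% ± 1.90, 26.0% ± 1.07 and 40.1% ± 0.694 in the same order. Slc7a5 was 60.1% ± 2.31, 58.8% ± 0.0928 and 50.2% ± 0.667. The Slc7a6 share was thus higher in every RANKL+UD library, at 39.5% to 40.9%, than in any other, where it reached 32.0%. These shares are a description, with no test.

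Of the other light chains that pair with Slc3a2, Slc7a7, which exchanges arginine, and Slc7a8, which exchanges neutral amino acids, were at an FPKM of at most 6.84, and Slc7a10 was not tested, being listed at 0 in all but 1 library. Slc7a8 had an FPKM of 5.72, 6.11 and 6.84 in control, 1.76, 2.01 and 1.86 with RANKL, and 2.01, 1.83 and 2.17 with RANKL+UD. It fell by 1.64 on the log2 scale with RANKL (SE 0.109, edgeR adjusted p = 3.14e-11), and its log2 fold change with UD was 0.01 (95% interval -0.24 to 0.26). Slc7a7 went from 3.60, 3.64 and 2.99 in control to 2.14, 2.36 and 2.41 with RANKL, a log2 fold change of -0.48 (SE 0.142, edgeR adjusted p = 0.00662), and was at 2.18, 1.74 and 1.80 with RANKL+UD (edgeR adjusted p = 0.0697 against RANKL). With all 6 light chains in the sum, the ratio to the heavy chain was 1.51 ± 0.00564 in control, 0.835 ± 0.0608 in RANKL and 1.27 ± 0.0466 in RANKL+UD libraries (SD, n = 3 each).

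**Figure D2:**
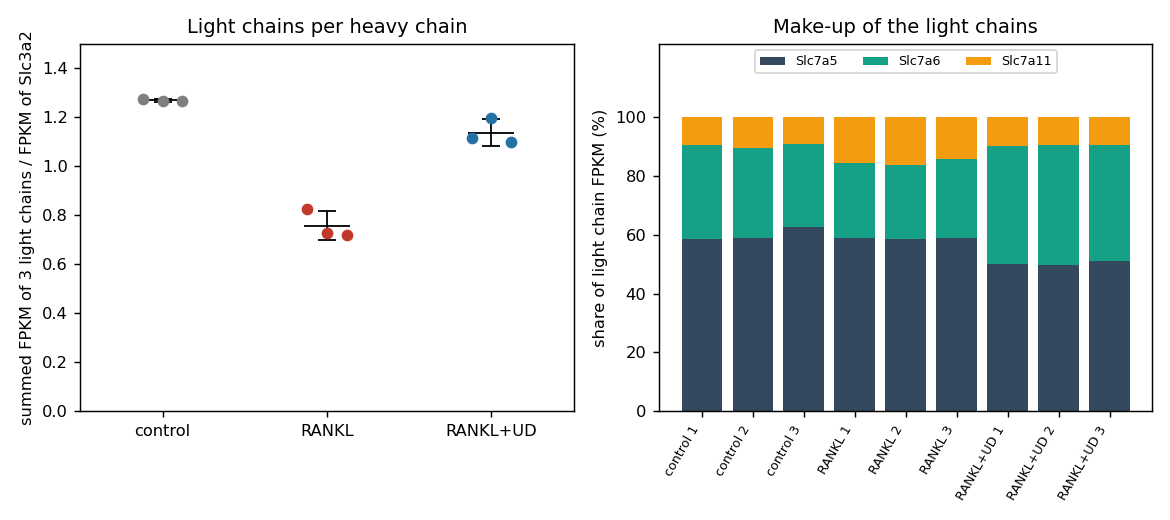
Left, the summed FPKM of Slc7a5, Slc7a6 and Slc7a11 divided by the FPKM of Slc3a2 in each library, with the group mean ± SD (n = 3). Right, the percent of that light chain FPKM held by each of the 3 genes in each library. The ratio is lowest in the 3 RANKL libraries, at 0.720 to 0.826, and the Slc7a6 share is highest in the 3 RANKL+UD libraries.

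Slc7a1 (ENSMUSG00000041313), the carrier of arginine and lysine, works without the heavy chain. Its FPKM was 24.3, 24.5 and 24.7 in control, 28.2, 27.8 and 26.3 with RANKL, and 19.2, 20.4 and 19.6 with RANKL+UD. The groups were apart at each step, in the same order as for Slc7a11. Slc7a1 rose with RANKL by a log2 fold change of 0.25 (SE 0.046, edgeR adjusted p = 8.07e-05) and fell by 0.56 with UD (SE 0.046, edgeR adjusted p = 6.29e-09).

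Slc1a4 (ENSMUSG00000020142), the exchanger of alanine, serine and cysteine, had the largest change of the 10 in RANKL against control and in RANKL+UD against RANKL. Its FPKM was 4.36, 4.01 and 4.68 in control, 7.11, 6.73 and 5.86 with RANKL, and 2.28, 2.12 and 2.52 with RANKL+UD. Every RANKL library was thus more than 5 and every RANKL+UD library under 3. The gene rose with RANKL by a log2 fold change of 0.68 (SE 0.106, edgeR adjusted p = 1.06e-05). With UD it fell by 1.59 (SE 0.113, edgeR adjusted p = 8.08e-10), to 0.332 times the RANKL level and 0.533 times the control level. By size of the change under UD it ranked at position 175 of 11995 genes tested.

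Slc1a5 (ENSMUSG00000001918) exchanges glutamine and is the second most abundant carrier of the set in all groups. Its FPKM was 47.1, 50.9 and 50.4 in control, 64.4, 67.7 and 68.0 with RANKL, and 63.4, 64.1 and 64.6 with RANKL+UD. All 6 libraries with RANKL were above control, but the RANKL and RANKL+UD libraries overlapped in FPKM. With the TMM scaling of the edgeR fit they did not overlap, at 67.2, 70.3 and 70.8 with RANKL and 62.6, 62.5 and 63.3 with RANKL+UD. The rise with RANKL was a log2 fold change of 0.52 (SE 0.046, edgeR adjusted p = 4.25e-09). UD gave a log2 fold change of -0.15 (SE 0.046, edgeR adjusted p = 0.0163), which with libraries scaled by total counts and not TMM was -0.06 (edgeR adjusted p = 0.337). The call was also lost without RANKL replicate 2 (adjusted p = 0.0616), RANKL+UD replicate 1 (0.0518) or RANKL+UD replicate 2 (0.0561).

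Slc38a2 (ENSMUSG00000022462), the sodium-coupled carrier of small neutral amino acids that cells raise when amino acids are scarce, was the most abundant of the 10. Its FPKM was 94.7, 95.8 and 93.9 in control, 115, 113 and 106 with RANKL, and 83.0, 86.1 and 84.9 with RANKL+UD. The 3 groups did not overlap. Slc38a2 rose with RANKL by a log2 fold change of 0.31 (SE 0.044, edgeR adjusted p = 3.32e-06) and fell by 0.48 with UD (SE 0.044, edgeR adjusted p = 3.64e-08).

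Its paralogue Slc38a1 (ENSMUSG00000023169), a sodium-coupled glutamine carrier, had an FPKM of 14.5, 15.2 and 14.3 in control, 13.9, 14.6 and 13.2 with RANKL, and 16.4, 16.2 and 16.2 with RANKL+UD. Control and RANKL overlapped, and RANKL+UD was above both. The RANKL log2 fold change was 0.01 (95% interval -0.09 to 0.11, edgeR adjusted p = 0.854) and turned to -0.08 with total counts (edgeR adjusted p = 0.191). With UD it rose by a log2 fold change of 0.14 (SE 0.048, edgeR adjusted p = 0.0260), and this call was lost when RANKL replicate 1 (adjusted p = 0.0509), RANKL replicate 3 (0.0900) or RANKL+UD replicate 1 (0.0820), 2 (0.0584) or 3 (0.0611) was left out.

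Slc6a9 (ENSMUSG00000028542), the glycine carrier, was the least abundant. Its FPKM was 2.63, 3.55 and 4.00 in control, 2.87, 3.25 and 3.46 with RANKL, and 1.57, 2.05 and 1.80 with RANKL+UD. Control and RANKL overlapped widely, while every RANKL+UD library was below all others. The RANKL log2 fold change was 0.0006 (95% interval -0.28 to 0.28, edgeR adjusted p = 0.997), -0.09 with total counts. With UD the gene fell by 0.91 (SE 0.144, edgeR adjusted p = 3.44e-05), to 0.532 times the RANKL level.

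**Figure D3:**
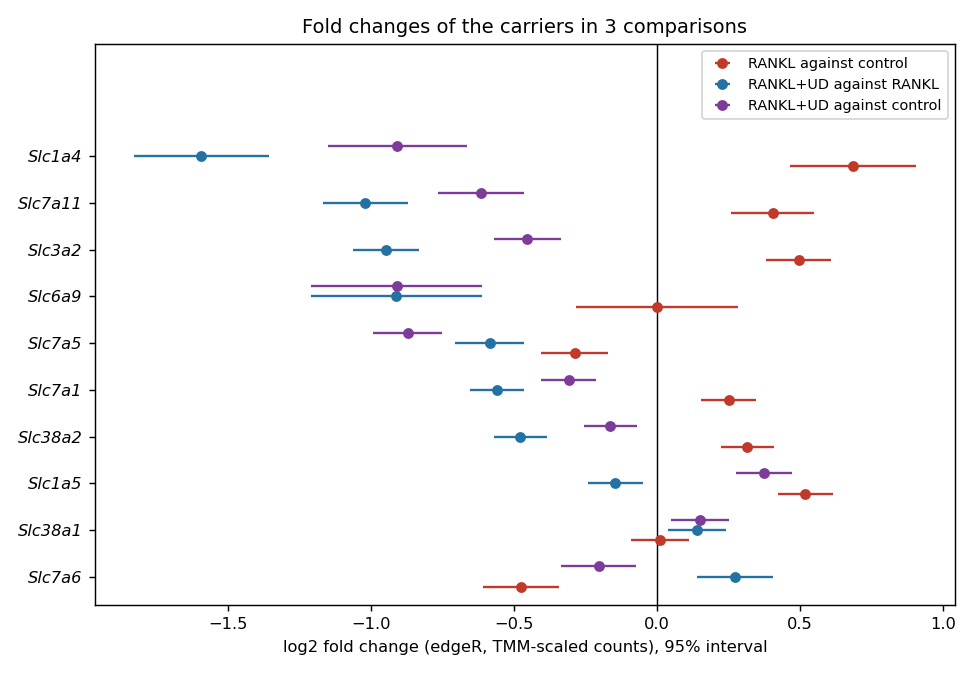
Log2 fold change of each carrier (horizontal axis) with its 95% interval from edgeR in RANKL against control, RANKL+UD against RANKL and RANKL+UD against control. Genes are ordered by the change in RANKL+UD against RANKL, from Slc7a6 at the bottom (0.27) to Slc1a4 at the top (-1.59), and the intervals of Slc38a1 and Slc6a9 in RANKL against control span 0.

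Counted over the set, 6 of 10 carriers were higher with RANKL than in control, where 27.3% of all genes tested were, and 2 were lower, where 30.2% were. With a fold of over 1.5 as well, 1 was higher (Slc1a4), beside 10.8% of all genes, and 0 were lower, beside 14.1%. With RANKL+UD against RANKL, 8 of 10 were lower, beside 20.2% of all genes, and 2 were higher, beside 18.6%. At a fold of over 1.5, 4 were lower (Slc1a4, Slc7a11, Slc3a2 and Slc6a9), beside 5.49%, and 0 were higher, beside 4.38%. Slc7a5, at a log2 fold change of -0.58, lay just outside that fold and Slc6a9, at -0.91, was the nearest inside it. Such counts describe a set that was chosen with earlier results of these data known.

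Against control, RANKL+UD had 8 of 10 carriers lower, beside 27.3% of all genes, and 2 higher (Slc1a5 and Slc38a1), beside 26.7%. At a fold of over 1.5, 4 were lower (Slc1a4, Slc6a9, Slc7a5 and Slc7a11), beside 12.8%, and 0 were higher, beside 9.3%. The median log2 fold change of the 10 was 0.28 for RANKL against control, -0.57 for RANKL+UD against RANKL and -0.38 for RANKL+UD against control, and the medians of all genes tested were -0.03, 0.005 and -0.002. The comparisons share libraries, the RANKL group being in both of the first 2, so a high value there enters both with opposite sign.

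The scaling of libraries moved the split of calls over all genes. Of those called in RANKL+UD against RANKL, 48.0% were higher with TMM and 66.2% with total counts, and in RANKL against control 47.5% and 36.9%. Under total counts the median of all genes was -0.11 for RANKL against control and 0.09 for RANKL+UD against RANKL. The 8 carriers called lower in RANKL+UD against RANKL stayed so in all of the 17 alternatives run, save Slc1a5, which lost its call in some. The carriers past a fold of 1.5 varied more. With limma on log2(FPKM + 1), Slc6a9 had a log2 fold change of -0.58 and was no longer past it. Slc7a5 came past it with DESeq2 (-0.60), among others.

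By mean FPKM, which is per exonic length of the gene, the order in control was Slc38a2 (94.8), Slc1a5 (49.5), Slc3a2 (40.3), Slc7a5 (30.8), Slc7a1 (24.5), Slc7a6 (15.5), Slc38a1 (14.7), Slc7a11 (4.95), Slc1a4 (4.35) and Slc6a9 (3.39). Which transcripts these cells made was not determined, so orders and shares between genes rest on that length. The libraries of Slc7a6 and Slc38a1 overlapped, and those of all other neighbours did not. With RANKL, Slc7a1 stood above Slc7a5, Slc38a1 above Slc7a6 and Slc1a4 above Slc7a11, the last pair with overlapping libraries. With RANKL+UD the order began with the same 3 genes, and Slc7a5 (16.8) and Slc38a1 (16.3) overlapped. Slc1a5 was 17.5% of the summed FPKM of the 10 carriers in control, 20.7% under RANKL and 25.4% under RANKL+UD, and Slc3a2 was 14.3%, 16.6% and 11.7%.

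Among all genes tested, the 5 whose log2 level was most like that of Slc7a11 over the 9 libraries were Slc7a1 (Pearson r = 0.989), Hbp1 (0.988), Osbpl8 (0.988), Chac1 (0.985) and Nr1d2 (0.983). Chac1 degrades glutathione and is also in the stress response list below. Those most like Slc7a5 were Cd109 (r = 0.999), Myo1f (0.996), Snx5 (0.994), Apobec1 (0.993) and Shisa5 (0.993). Within the set, Slc7a11, Slc3a2, Slc7a1, Slc1a4 and Slc38a2 had r of 0.950 to 0.989 with each other, and Slc7a6 and Slc1a5 had r = -0.913. The 9 libraries fall into 3 groups and share their group's conditions, so these values describe the group pattern and carry no test.

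Of 31 other plasma membrane amino acid carriers, 5 were tested and 26 were too low. With UD, 2 of the 5 were lower than with RANKL and 0 were higher, beside 20.2% and 18.6% of all genes, with a median log2 fold change of -0.16. The 2 were Slc6a6, the taurine carrier, which had an FPKM of 109, 114 and 105 with RANKL and 102, 105 and 103 with RANKL+UD (log2 fold change -0.17, SE 0.044, edgeR adjusted p = 0.00442), and Slc43a2, a carrier of large neutral amino acids (log2 fold change -0.16, SE 0.049, edgeR adjusted p = 0.0139). Against control, RANKL gave 1 higher and 3 lower, beside 27.3% and 30.2% of all genes, with a median of -0.48.

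All 7 lysosomal amino acid carriers were tested, and with UD 3 were lower and 0 were higher (median -0.06), beside 20.2% and 18.6% of all genes. The largest falls were in Mfsd12, which takes cysteine into lysosomes and melanosomes, with an FPKM of 45.3, 45.3 and 50.1 with RANKL and 32.9, 29.2 and 33.7 with RANKL+UD (log2 fold change -0.64, edgeR adjusted p = 1.94e-07), and in Slc38a7 (log2 fold change -0.38, edgeR adjusted p = 0.00115), which exports glutamine and asparagine from lysosomes. Of 9 mitochondrial carriers, 7 were tested, and with UD 4 were higher and 0 were lower (median 0.21), beside the same shares of all genes. The difference between these 2 lists was not tested. Slc25a44, which takes branched-chain amino acids into mitochondria, rose from 8.20, 9.10 and 8.74 with RANKL to 14.4, 15.6 and 13.3 with RANKL+UD (log2 fold change 0.65, edgeR adjusted p = 9.16e-07), and Slc25a22, a glutamate carrier, by a log2 fold change of 0.39 (edgeR adjusted p = 0.0129).

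A list of 26 stress response genes, holding Atf4, the Eif2ak kinases and genes ATF4 is known to act on but no carriers, had 25 tested. With UD against RANKL, 20 of the 25 were lower and 1 was higher, beside 20.2% and 18.6% of all genes, with a median of -0.73. With RANKL against control 15 were higher and 7 lower, beside 27.3% and 30.2%, with a median of 0.34. Trib3, a pseudokinase that ATF4 induces, had an FPKM of 7.74, 7.15 and 7.73 in control, 16.1, 18.0 and 19.2 with RANKL, and 2.56, 2.74 and 2.78 with RANKL+UD. It rose with RANKL by a log2 fold change of 1.33 (edgeR adjusted p = 1.14e-10) and fell by 2.81 with UD (edgeR adjusted p = 1.12e-13). Chac1 had 3.77, 5.26 and 3.64 in control, 8.37, 7.78 and 7.01 with RANKL, and 1.18, 1.87 and 1.73 with RANKL+UD, a fall of 2.37 with UD (edgeR adjusted p = 4.33e-09). The gene that was higher was Eif2ak2, a kinase activated by double-stranded RNA, with 18.3, 17.3 and 14.8 with RANKL and 25.7, 25.1 and 23.7 with RANKL+UD (log2 fold change 0.48, edgeR adjusted p = 1.00e-05). CARE letters were found before the start in 5 of the 24 genes of the list that RefSeq windows cover, beside 3.89% of all genes. They were Asns, Atf3, Chac1, Nupr1 and Vldlr, the last of which was too low to be tested. The list was drawn from genes known to respond to ATF4, so this count is a description, with no test. In the other lists, the letters stood before the start of 1 of 21 other plasma membrane carriers, the light chain Slc7a7. They stood before 0 of 7 lysosomal and 0 of 8 mitochondrial carriers. The counts were 1 of 26 genes that sense amino acids for mTORC1, 1 of 11 enzymes and 0 of 5 regulators described below. These counts carry no test either.

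Among 6 regulators of the carriers, Atf4 had an FPKM of 111, 114 and 118 in control, 143, 142 and 150 with RANKL, and 102, 108 and 102 with RANKL+UD. It rose with RANKL by a log2 fold change of 0.43 (SE 0.047, edgeR adjusted p = 8.01e-08) and fell by 0.57 with UD (SE 0.047, edgeR adjusted p = 6.04e-09), in the same order of groups as Slc3a2 and Slc7a11. The protein made from Atf4 RNA is set mainly at translation and was not measured here. Myc, a growth regulator that drives several carriers, was at 0.83, 0.73 and 0.74 in control, 36.1, 35.2 and 37.5 with RANKL, and 14.8, 13.2 and 14.1 with RANKL+UD, a fall of 1.46 with UD (edgeR adjusted p = 1.59e-12).

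Nfe2l2, which encodes NRF2, an inducer of Slc7a11, had an FPKM of 66.0, 64.1 and 72.4 in control, 41.0, 37.2 and 41.6 with RANKL, and 41.2, 40.8 and 39.9 with RANKL+UD. It fell by 0.67 with RANKL (edgeR adjusted p = 1.29e-09), and its log2 fold change with UD was -0.06 (edgeR adjusted p = 0.431). Bach1, a repressor at the same sites, fell by 0.39 with RANKL (edgeR adjusted p = 4.07e-06) and by 0.24 with UD (edgeR adjusted p = 0.00203). Trp53, a repressor of Slc7a11, fell by 0.40 with RANKL (edgeR adjusted p = 2.14e-06) and rose with UD by a log2 fold change of 0.15 (edgeR adjusted p = 0.0361). Hif1a, the hypoxia factor, had log2 fold changes of -0.04 and 0.06 in the same comparisons (edgeR adjusted p = 0.534 and 0.335).

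Of 29 genes that sense amino acids for mTORC1, 27 were tested. With UD 5 were higher and 6 lower (median -0.01), beside 18.6% and 20.2% of all genes, and with RANKL against control 8 were higher and 8 lower, beside 27.3% and 30.2%, so both counts were near those of all genes. Castor1, the arginine sensor, fell with UD from 2.77, 2.30 and 1.62 to 1.52, 0.93 and 1.40 (log2 fold change -0.87, edgeR adjusted p = 0.00857), while Castor2 rose from 3.89, 4.30 and 3.82 to 5.21, 6.61 and 5.43 (log2 fold change 0.43, edgeR adjusted p = 0.000609). Sesn2, the leucine sensor, which is also in the stress response list, fell from 11.5, 12.4 and 13.9 to 6.66, 7.85 and 7.71 (log2 fold change -0.86, edgeR adjusted p = 6.90e-07). Rragb, one of the Rag GTPases, rose by a log2 fold change of 0.48 (edgeR adjusted p = 0.0188).

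Of 18 enzymes that use the carried amino acids, 15 were tested, and with UD 3 were higher and 5 lower (median -0.14), beside 18.6% and 20.2% of all genes. With RANKL 7 were higher and 4 lower, beside 27.3% and 30.2%. Cth, which makes cysteine from cystathionine and is in the stress response list too, had an FPKM of 1.60, 2.01 and 1.62 in control, 6.45, 6.77 and 6.99 with RANKL, and 1.99, 2.11 and 1.99 with RANKL+UD. It rose with RANKL by a log2 fold change of 2.03 (edgeR adjusted p = 2.46e-11) and fell by 1.82 with UD (edgeR adjusted p = 9.39e-10). Nos2, which makes nitric oxide from arginine, was at 0.45, 0.48 and 0.52 in control, 2.19, 2.79 and 2.23 with RANKL, and 0.97, 0.99 and 1.00 with RANKL+UD, a fall of 1.36 with UD (edgeR adjusted p = 9.34e-07). In the other direction, Shmt1, which converts serine and glycine, rose with UD from 4.53, 4.17 and 5.45 to 8.46, 7.53 and 8.77 (log2 fold change 0.72, edgeR adjusted p = 8.12e-06), and Gclm, a subunit of the enzyme that starts glutathione synthesis, from 6.14, 6.11 and 6.58 to 7.76, 8.07 and 8.46 (log2 fold change 0.28, edgeR adjusted p = 0.00460).

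**Figure D4:**
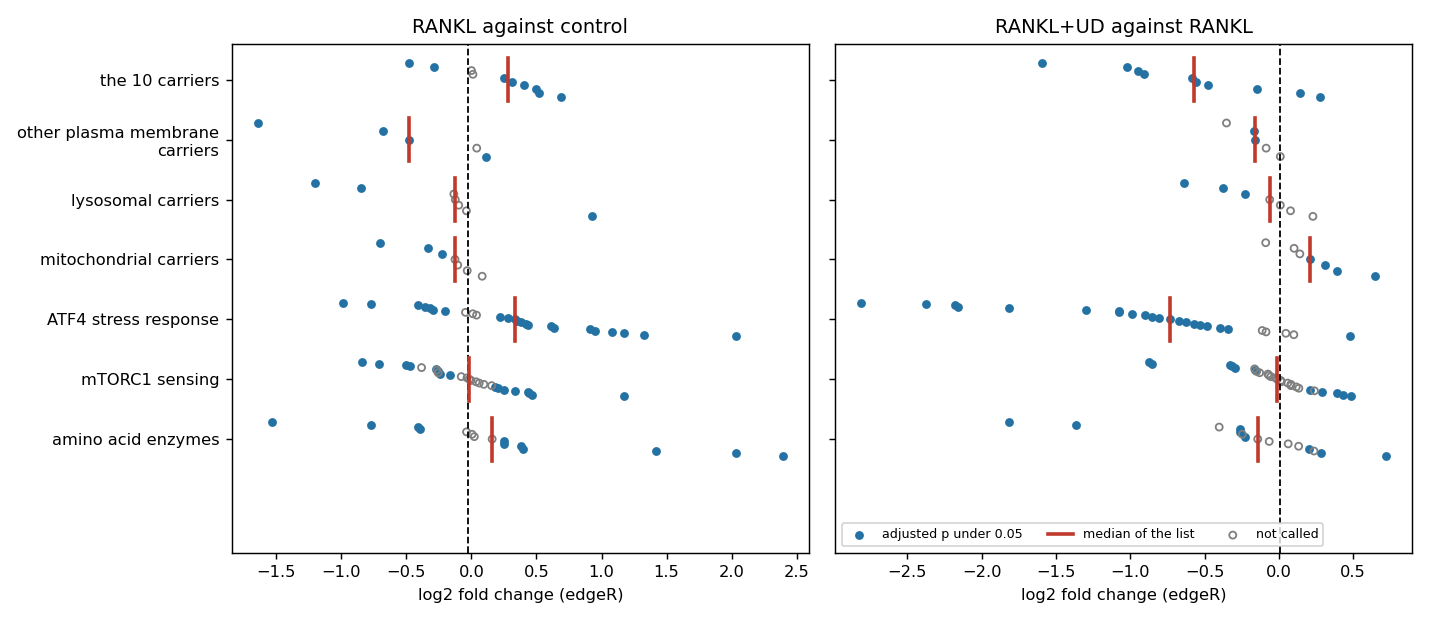
Log2 fold change of each tested gene (points, filled where the adjusted p is under 0.05) of the 10 carriers and of 6 lists of related genes, in RANKL against control (left) and RANKL+UD against RANKL (right), with the median of each list as a red line and the median of all tested genes as a dashed line. On the right the medians of the 10 carriers (-0.57) and of the stress response genes (-0.73) lie left of the dashed line, that of the mitochondrial carriers (0.21) lies right of it, and Cth and Sesn2 stand in more than 1 list.

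The deposited table places the carriers on chromosomes 3 (Slc7a11, 49846975 to 50398063), 8 (Slc7a5, 122607889 to 122634433, and Slc7a6, 106895489 to 106925338), 19 (Slc3a2, 8684246 to 8700733), 5 (Slc7a1, 148264220 to 148336714), 11 (Slc1a4, 20252180 to 20282713), 7 (Slc1a5, 16515265 to 16532199), 15 (Slc38a1, 96469299 to 96540794, and Slc38a2, 96585273 to 96597611) and 4 (Slc6a9, 117691703 to 117732395). Slc38a1 and Slc38a2 are thus neighbours on chromosome 15. The submitters' processing notes name the mm10 build, which is GRCm38. Yet 0 of the 10 genes have the same positions in the GRCm38 annotation, although all 10 have the same length of span. Of 52073 genes shared with that annotation, 1435 have the same positions. The deposited positions are thus mostly not those of GRCm38, and the build they use is not named. Slc7a11, Slc38a1 and Slc6a9 overlap other annotated genes, none of which reached an FPKM of 1 in any library.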

How the data were processed

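RNA of RAW264.7 cells in 3 groups of 3 libraries was sequenced from poly(A)-selected, strand-specific libraries. The authors deposited raw read counts per gene and FPKM values, which divide the counts by exonic length and library total, as well as exonic lengths in bases. FPKM recomputed from counts matched within 0.006 for 100% of genes. The aligner, the counter and the use of strand are not given in the sources used here. The 11995 genes that reached an FPKM of 1 in 3 or more libraries were fitted with edgeR 4.0.16 (R 4.3.3; quasi-likelihood, TMM, all 9 libraries, no block), and an adjusted p under 0.05 was called. SE is the log2 fold change divided by the root of F. Deviations from the group means were weakly correlated at most between same-numbered libraries (r from -0.019 to 0.098). The r of libraries with different numbers was -0.102 to 0.046, so a weak shared part by number is possible. None of the same-group libraries were close enough to be 1 library (chi-square per degree of freedom 2.90 to 8.89). Alternatives used DESeq2 1.42.0, limma 3.58.1 on log2(FPKM + 1) and log2(FPKM + 0.1), other scalings and filters, fewer libraries and a replicate block. Scripts were tested on simulated data. The carriers and lists were chosen with earlier results of these data known. Named were the 10 carriers, the regulators, the heavy and light chains, at most 2 highest and 2 lowest called genes of each other list in RANKL+UD against RANKL, and the 5 genes most like Slc7a11 and Slc7a5. Marker lists were counted, and only Lyz2 was named from them.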

Additional observations from a re-analysis of the deposited data

How the results depend on the processing

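Of 510 values (30 fold changes of carriers, each under 17 alternatives), 487 kept their direction and their side of the threshold, 12 were no longer called, 0 became called and 11 turned their sign. Those that turned were the RANKL against control changes of Slc38a1 and Slc6a9, neither of which was called. For Slc38a1 the log2 fold change was -0.0759 with total counts, -0.0715 with limma on log2(FPKM + 1) and -0.0760 on log2(FPKM + 0.1), and -0.0241 to 0.0494 with a library left out. For Slc6a9 it was -0.0872, -0.0570 and -0.0686, and -0.147 to 0.129. The 12 lost calls were 6 of Slc1a5 and 5 of Slc38a1 in RANKL+UD against RANKL, and 1 of Slc7a6 in RANKL+UD against control. With a library left out, 1 to 2 carriers were called higher in RANKL+UD against RANKL, Slc38a1 being the one lost. Carriers higher with RANKL at a fold of over 1.5 were 0 under both limma settings and 1 under the others, and the cause was not tested. Under the replicate block, 8 carriers were lower and 2 higher in RANKL+UD against RANKL, 5 lower at a fold of over 1.5 (Slc7a5 added), with 2347 genes higher and 2518 lower against 2233 and 2418 without it, and no carrier gained or lost an adjusted p under 0.05. What same-numbered libraries share beyond the number is not stated in the labels. Total counts gave 3348 genes higher and 1709 lower. The lowest counts, those of Slc1a4 and Slc6a9, give the widest intervals.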
